A study of Mus musculus with 16 samples.

Results

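Melanocyte identity and pigment genes were examined in mouse clear cell sarcoma (CCS), because human CCS is known for melanocytic traits. The 10 genes were taken by name from a list: the transcription factors Mitf, Sox10 and Pax3, the pigment enzymes Tyr, Tyrp1 and Dct, the melanosome proteins Pmel and Mlana, and the receptors Mc1r and Ednrb. They are 10 of 21938 protein-coding genes of GENCODE vM21 on chromosomes 1 to 19, X and Y, and all 10 were matched by symbol. The tumours carried the EWSR1::ATF1 genotype. In this fusion (EA1), EWSR1 sequence precedes the part of the transcription factor ATF1 that binds DNA, and a V5 tag was added. It was expressed from the Rosa26 promoter, with green fluorescent protein as a marker, after TATCre protein, a Cre recombinase that enters cells, had been injected into the hindlimb of mice 4 weeks old. No cell type was selected by this induction, the frozen tumours were powdered whole, and no sample without the fusion was analysed here. Chromatin immunoprecipitation sequencing (ChIP-seq) was labelled for V5 (the fusion), RNAPOL2 (phosphorylated RNA polymerase II) and H3K27ac (histone H3 acetylated on a lysine, a mark of active regulatory regions) in 4 samples each, with 4 samples of input chromatin.

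Each antibody is represented by 1 list of peaks, which are regions where reads were enriched over input. The lists hold no read counts, no depth and no values per sample, so no replicate error could be given and no test was made on the genes. Each peak has a score, a whole number without a stated scale, and was therefore read within its own list, by rank (1 is the highest) or by percentile (the share of the list at or below). There were 10665 V5 peaks (median score 230), 20375 RNAPOL2 peaks (246) and 27552 H3K27ac peaks (212). The study describes a V5 set of this size and also a larger one, and how they were separated is not given in the sources used here. Each V5 count, distance and missing peak refers to the deposited list. Coordinates are those of mm10. A gene without a listed peak is a gene where none was called, which does not show that the protein or mark was absent. In bulk tumour chromatin, fewer cells that carry a mark and less of the mark in each cell cannot be told apart.

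Melanocytes arise from the neural crest, where SOX10 and PAX3 switch on Mitf, and MITF then activates the genes for pigment synthesis and for the melanosome. In melanocytes, the hormone receptor MC1R raises cyclic AMP, and CREB, a close relative of ATF1, acts on the melanocyte promoter of Mitf. Mitf has several promoters. The first gives a form made in many tissues and the last, far downstream, gives the shorter melanocyte form.

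A promoter peak is one within 3 kb of any annotated transcription start site (TSS) of the gene. V5 had a promoter peak at 1 of the 10 genes, Dct, where 16.6% of all coding genes had one. RNAPOL2 had a promoter peak at 3 genes (Mitf, Pmel and Mc1r), compared with 53.5% of all coding genes. H3K27ac had one at 4 genes (Mitf, Pmel, Mc1r and Ednrb), compared with 58.6%. Both RNAPOL2 and H3K27ac had one at 3 genes, compared with 52.2%. None of the 10 genes had promoter peaks in all 3 lists, a pattern held by 15.9% of coding genes, and 5 had one in any list, compared with 60.1%. Mlana, Pax3, Sox10, Tyr and Tyrp1 had no promoter peak in any list, which was true of 39.9% of coding genes. The V5 count was within 1 gene of the share over all coding genes, and the RNAPOL2 and H3K27ac counts were below it by more than 1 gene. These differences were not tested.

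V5 peaks lay in the bodies of Mitf, Dct and Ednrb (3 of 10 genes, compared with 20.0% of coding genes). RNAPOL2 peaks touched the bodies of 2 genes (53.7% of coding genes) and H3K27ac peaks those of 4 (59.1%). A peak of any list touched 5 bodies (61.3%), and Mitf was the 1 gene touched by all 3 lists (18.0%). RNAPOL2 no longer counted in the Mitf body by the middle base of the peak (42.0% of coding genes) or in the upper 50% by score (46.7%). Within 50 kb of a TSS, V5 peaks were found for 5 genes (41.3% of coding genes), RNAPOL2 peaks for 6 (69.9%) and H3K27ac peaks for 7 (75.1%). A peak of any list was within that distance of 7 genes (76.6%), and peaks of all 3 lists were within it for 4, Dct, Mc1r, Mitf and Pmel (38.8%). Pax3, Tyr and Tyrp1 had no peak of any list within 50 kb, as had 23.4% of coding genes. The counts within 50 kb were all within 1 gene of the share over all coding genes. For V5 and H3K27ac, whether the count lay above or below that share depended on the setting: V5 peaks within 25 kb were found for 2 genes (30.1% of coding genes) and within 100 kb for 5 (56.0%), and in the upper 50% of the H3K27ac list by score the count within 50 kb was 7 genes (68.2%). The RNAPOL2 count was below the share under each setting tried, with 4 genes within 25 kb (63.3%), 6 within 100 kb (77.3%) and 4 within 50 kb in the upper 50% by score (64.4%). No other coding gene had a TSS within 50 kb of 6 of the 10 genes, compared with 18.3% of coding genes, whereas Mlana had 2 such neighbours, Sox10 and Mc1r 3 each and Pmel 5, and the median over all coding genes was 2.

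**Figure D1:**
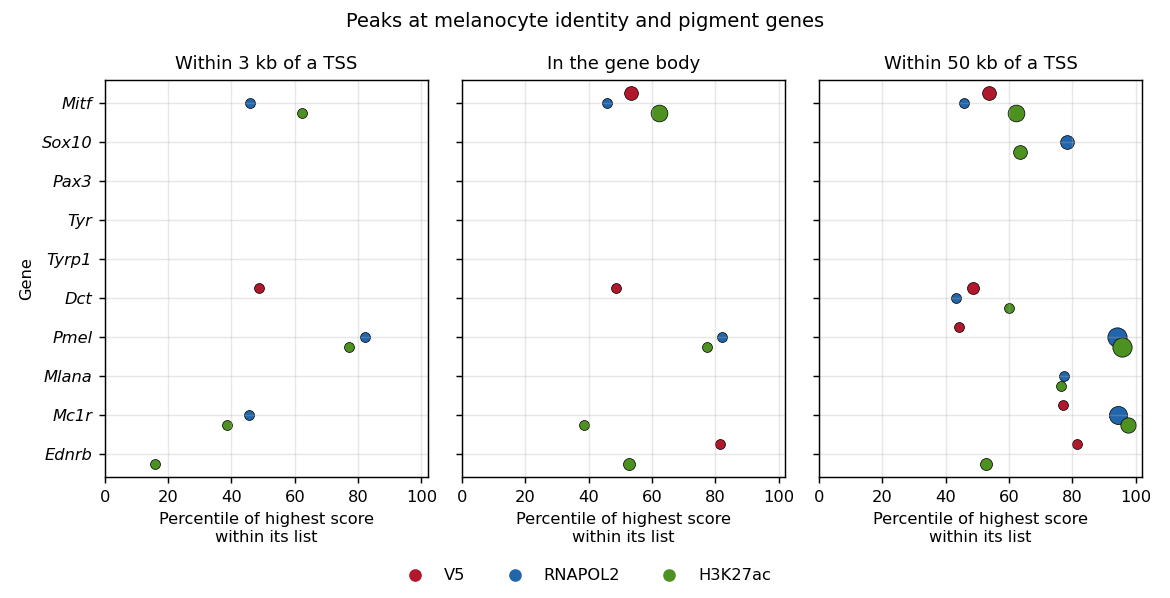
Highest-scored peak of each list at each of the 10 genes, within 3 kb of a TSS, in the gene body and within 50 kb of a TSS. The x axis is the percentile of the score within its list, larger points stand for more peaks, and a missing point means that no peak was listed. Pax3, Tyr and Tyrp1 have no point in any panel, and the only V5 point within 3 kb belongs to Dct.

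Mitf, the master regulator of the melanocyte lineage (ENSMUSG00000035158.15, chromosome 6, 97807052 to 98021349, plus strand), had RNAPOL2 and H3K27ac peaks at its first TSS and none at its later ones. The gene is 214 kb long and its 8 transcripts start at 7 TSSs, which form 4 groups. An RNAPOL2 peak (97806681 to 97807280) with a score of 191 and rank 11021 of 20375 covered the first group, at 97807052 to 97807058. An H3K27ac peak (97806441 to 97807870) with a score of 372 and rank 10369 of 27552 covered it as well. No peak of any list lay within 3 kb of the other 3 groups. For the last group, at 97991792 to 97991921, from which the melanocyte form is known to start, the nearest V5 peak was 79.5 kb away, the nearest H3K27ac peak 136 kb and the nearest RNAPOL2 peak 185 kb.

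The sequences before the first and the last Mitf start are shown because the last holds the palindrome TGACGTCA, the cyclic AMP response element (CRE) to which ATF1 and CREB bind. They are from RefSeq (GRCm38.p6, plus strand) and end just before the start, with TGACGTCA and its variants of the form TGANNTCA in capitals, searched on both strands.
First Mitf start, chr6:97806958-97807057: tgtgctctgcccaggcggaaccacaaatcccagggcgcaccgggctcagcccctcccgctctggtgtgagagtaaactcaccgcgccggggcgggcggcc
Last Mitf start, chr6:97991583-97991782: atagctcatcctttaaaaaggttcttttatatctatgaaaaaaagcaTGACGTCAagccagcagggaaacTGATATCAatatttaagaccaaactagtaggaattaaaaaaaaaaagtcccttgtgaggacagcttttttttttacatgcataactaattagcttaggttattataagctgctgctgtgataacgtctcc

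The TGACGTCA began 153 bases before the last RefSeq start of Mitf (97991783). Among the 32851 RefSeq promoters of 300 bases, 1.79% held this motif. The variant TGATATCA followed it at 130 bases before the start, and 4100 of the promoters held a variant. The promoter of the first start held neither. It had 22 CpG dinucleotides in 300 bases, more than 76.9% of the promoters, whereas the promoter of the last start had 8, close to the median of 7. Thus no peak was listed at the Mitf start with the CRE, and the start with RNAPOL2 and H3K27ac peaks had no CRE in its promoter.

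Of the V5 peaks, 3 lay inside Mitf, all intronic and all at scores near or below the middle of the list. The first (97819001 to 97819550) was 11.9 kb downstream of the first TSS, with a score of 208 (rank 5635 of 10665), and overlapped no peak of the other lists. The second (97828751 to 97829390) was 21.7 kb downstream, with a score of 246 (rank 4956), and overlapped an H3K27ac peak with a score of 110. The third (97911731 to 97912260) was 17.5 kb upstream of the second TSS group, with a score of 174 (rank 6381), and overlapped no other peak. Near the first 2 of these, 3 H3K27ac peaks lay within 12 kb of each other and formed a stitched region of 10.1 kb (97820001 to 97830140), which held 1 V5 peak. Mitf was the only one of the 10 genes touched by such a region of at least 3 peaks, a share of 15.9% among coding genes. A further H3K27ac peak, 48.1 kb downstream of the first TSS, had a score of 49 (rank 24905).

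None of the 3 V5 peaks in Mitf held TGACGTCA, which was present in 8.51% of all V5 peaks. The first 2 held variants of it, 1 copy (TGACTTCA) and 2 copies (TGAGTTCA and TGATGTCA), where 40.3% of all V5 peaks had at least 1. The first also held 2 copies of TGACG, found in 70.9% of all V5 peaks. The third held no variant, no TGACG and no AP1 motif (TGAGTCA, in 26.0% of all V5 peaks). The middle of the first peak is shown because TGACG, the 5 letters that start the CRE, lay at its very middle in the other orientation (CGTCA, in capitals, plus strand).
Mitf intronic V5 peak, chr6:97819216-97819335: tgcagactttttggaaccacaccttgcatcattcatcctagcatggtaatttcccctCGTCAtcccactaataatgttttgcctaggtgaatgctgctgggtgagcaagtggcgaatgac

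**Figure D2:**
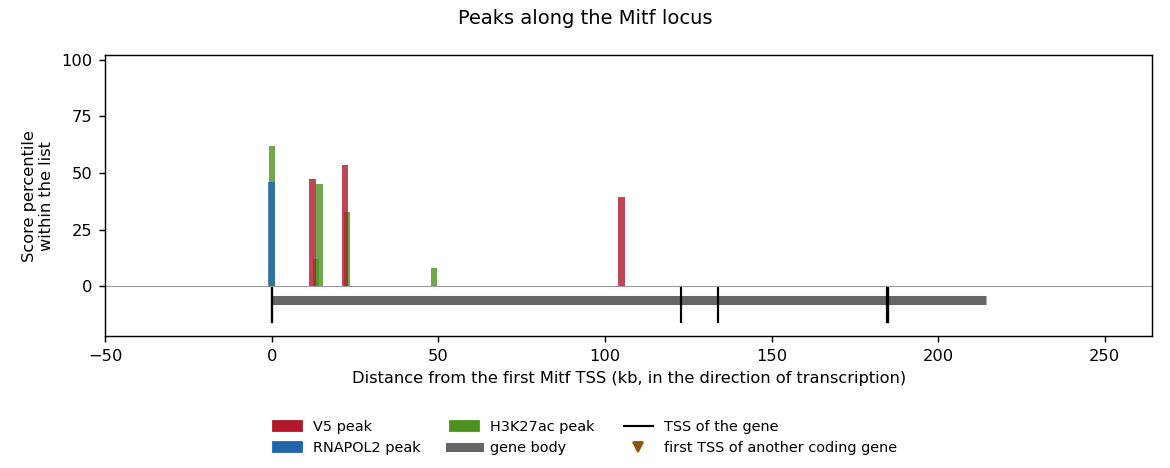
Peaks along Mitf, with distance from its first TSS in kb on the x axis and the percentile of each score within its list as bar height. Very narrow peaks are drawn wider to be seen, and black ticks mark the TSSs. RNAPOL2 and H3K27ac peaks stand at the first TSS, 3 V5 peaks stand within the gene, and no peak stands near the last TSS group.

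Sox10, the neural crest factor that activates Mitf and Dct (ENSMUSG00000033006.10, chromosome 15, 79154908 to 79165240, minus strand), had no peak at its promoter or in its body. The nearest V5 peak was 163 kb from its TSSs. The nearest RNAPOL2 peak (79140921 to 79141730, score 1088, rank 4394) was 22.7 kb downstream and the nearest H3K27ac peak (79140721 to 79141940, score 397, rank 10008) 22.5 kb downstream, and both covered TSSs of Polr2f, which encodes a polymerase subunit, and of 1700088E04Rik. The 2 other RNAPOL2 peaks and 1 other H3K27ac peak downstream covered TSSs of Micall1 or 1700088E04Rik. An H3K27ac peak upstream of Sox10, 43.7 kb away, had a score of 74 (rank 21685) and covered a TSS of Gm10863. Every peak within 50 kb of Sox10 thus covered a TSS of another gene.

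Pax3, the paired-box factor that acts with SOX10 on Mitf (ENSMUSG00000004872.15, chromosome 1, 78101267 to 78197134, minus strand), was farther from all 3 lists. Its nearest V5 peak was 335 kb away, its nearest RNAPOL2 peak 291 kb and its nearest H3K27ac peak 291 kb. For the V5 distance 20.4% of coding genes were farther from their nearest peak, for RNAPOL2 12.1% and for H3K27ac 9.89%.

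The pigment enzymes divided into Tyr and Tyrp1, far from every peak, and Dct, with a V5 peak in the gene. Tyr, the rate-limiting enzyme of melanin synthesis (ENSMUSG00000004651.6, chromosome 7, 87424771 to 87493512, minus strand), was 1760 kb from the nearest V5 peak, 784 kb from RNAPOL2 and 246 kb from H3K27ac. Tyrp1, which acts later in the same pathway (ENSMUSG00000005994.14, chromosome 4, 80834123 to 80851719, plus strand), was 1520 kb from V5, 596 kb from RNAPOL2 and 596 kb from H3K27ac. Fewer than 5 in 100 coding genes were farther from a V5 peak than either (3.88% for Tyr and 4.78% for Tyrp1).

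Dct, the dopachrome tautomerase (ENSMUSG00000022129.4, chromosome 14, 118012790 to 118052244, minus strand), held the only V5 promoter peak of the 10 genes. This peak (118043941 to 118044490) had a score of 218, rank 5394 of 10665, and overlapped no RNAPOL2 or H3K27ac peak. It lay 812 bp from the start of a retained-intron transcript (118043129) and within an intron of the full gene. From the main start, at 118052185 to 118052244, it was 7.7 kb away, so it was a promoter peak by the internal TSS alone. Only 38 of 21938 coding genes (0.173%) had V5 as the only list with a promoter peak. A TSS of the non-coding gene 4930435M08Rik was also within 3 kb of the peak. A second V5 peak (118080901 to 118081410, score 122, rank 7874) was 28.7 kb upstream. No RNAPOL2 or H3K27ac peak was closer than 36.6 kb, where an RNAPOL2 peak (score 168, rank 11470) and an H3K27ac peak (score 334, rank 10932) overlapped each other upstream, with Dct as the nearest coding gene by TSS.

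The middle of the intronic Dct peak is shown because it consists of repeated TGA units, the other kind of sequence for which the study searched. A string was defined as more than 4 units of TGA or TCA with gaps of at most 5 bp, on either strand. The string here had 7 units (118044199 to 118044222), 5 bp from the middle of the peak, and overlapped 2 copies of TGACG. The capitals mark the string and the TGACG copies, on the plus strand.
Dct intronic V5 peak, chr14:118044156-118044275: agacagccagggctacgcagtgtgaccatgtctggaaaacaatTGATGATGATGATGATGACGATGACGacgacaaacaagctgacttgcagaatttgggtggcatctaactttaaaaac

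Strings of this kind were found in 10.2% of all V5 peaks and in 1 of the 6 V5 peaks whose nearest coding TSS belonged to one of the 10 genes. The peak held no TGACGTCA, no variant and no AP1 motif.

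The promoters of the pigment genes shared another motif. MITF binds the M-box, taken here as TCATGTG, whose core CATGTG was found in 14.2% of all promoters. TCATGTG was searched in the 300-base promoters of RefSeq, which held 6 of the 10 genes (Mitf, Tyr, Tyrp1, Dct, Mc1r and Ednrb; Sox10, Pax3, Pmel and Mlana were not matched). Tyr, Tyrp1, Dct and Mc1r each held TCATGTG, and 3.77% of all promoters did. The 4 stretches of 30 bases are printed in the direction of transcription (GRCm38.p6), with TCATGTG in capitals.
Tyr, minus strand, chr7:87493516-87493545: gaaaaagttagTCATGTGctttgcagaaga
Tyrp1, plus strand, chr4:80834155-80834184: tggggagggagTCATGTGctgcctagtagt
Dct, minus strand, chr14:118052379-118052408: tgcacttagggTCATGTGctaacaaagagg
Mc1r, plus strand, chr8:123407019-123407048: gcacatgcccaTCATGTGgccaccctcagg

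The motif began 22 bases before the start of Tyr, 47 before that of Tyrp1, 151 before that of Dct and 52 before that of Mc1r. Dct held a further copy in the other orientation at 232 bases. Neither the 3 Mitf promoters nor that of Ednrb held TCATGTG. None of the 4 promoters with the motif held TGACGTCA or TGACG, and 1, that of Dct, held a variant of the CRE (TGAGTTCA). Their CpG counts were 0 in 300 bases at Tyr, 3 at Tyrp1, 4 at Mc1r and 5 at Dct, with a median of 7 over all promoters. The promoters without the motif had 22, 5 and 8 at the 3 Mitf starts and 15 at Ednrb, so the counts of promoters with and without it met at 5. A match of letters describes the sequence and does not show that a factor was bound.

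**Figure D3:**
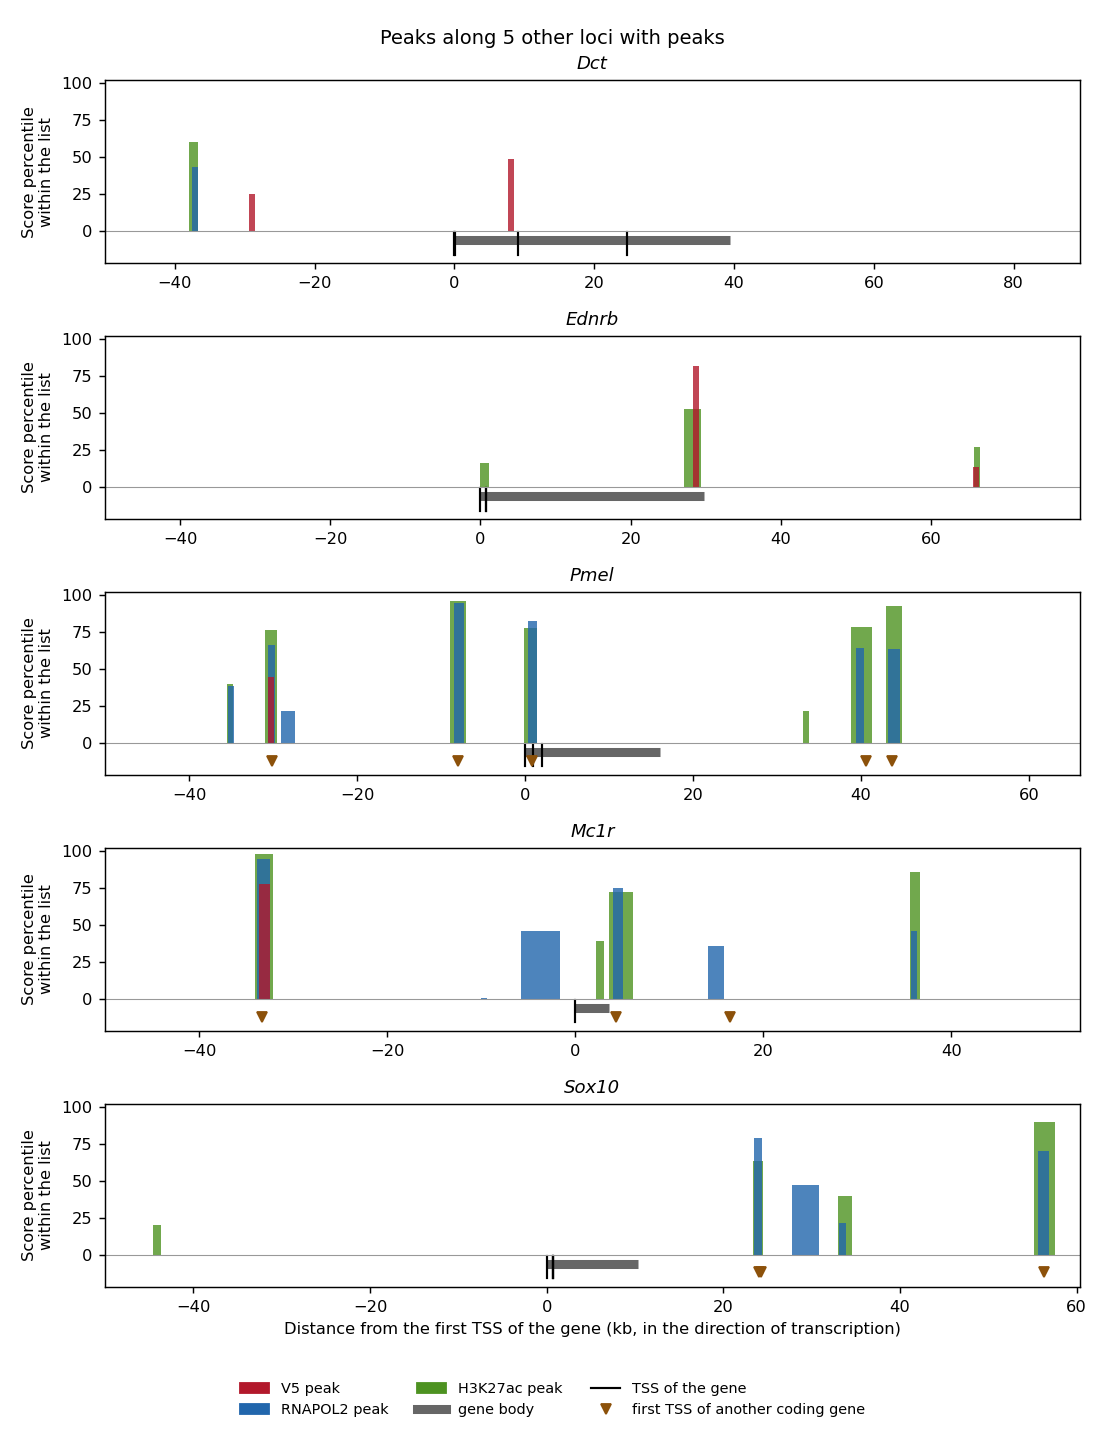
Peaks along Dct, Ednrb, Pmel, Mc1r and Sox10, from 50 kb before to 50 kb after each gene body, with distance from the first TSS in kb and the percentile of each score within its list. Brown triangles mark the first TSS of other coding genes. At Pmel, Mc1r and Sox10 the tallest bars stand over triangles, and the Dct and Ednrb panels have no triangle.

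Pmel and Mlana encode structural proteins of the melanosome. At Pmel (ENSMUSG00000025359.10, chromosome 10, 128704195 to 128720238, plus strand), the fibril protein of the early melanosome, the strongest promoter peaks of the 10 genes were found in both marks. The RNAPOL2 peak (128704561 to 128705570) had a score of 1281 and rank 3599 of 20375, and the H3K27ac peak (128704071 to 128705670) a score of 822 and rank 6235 of 27552. Both also covered TSSs of Cdk2, the cell cycle kinase that is transcribed in the opposite direction from the same place. When all coding genes were ranked by likeness to Pmel in the percentiles of their highest promoter and body scores in the 3 lists, Cdk2 was the nearest, at a distance of 0, because the peaks were the same. The lists carry no strand, so the share of either gene in these peaks cannot be told apart. For the Pmel transcript that starts at 128706258, the RNAPOL2 peak ended 688 bp and the H3K27ac peak 588 bp before the start. No V5 peak lay at Pmel. The nearest (128673721 to 128674290, score 196, rank 5872) was 29.9 kb away and covered a TSS of Suox, the sulfite oxidase gene, together with RNAPOL2 and H3K27ac. It held 3 copies of TGACG and no TGACGTCA. Further peaks within 50 kb included those over TSSs of Rab5b, with RNAPOL2 rank 1185 and H3K27ac rank 1180.

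Mlana (ENSMUSG00000024806.4, chromosome 19, 29697824 to 29708634, plus strand), whose product is the melanoma antigen MART-1, had no peak at the promoter or in the body. Its nearest V5 peak was 108 kb away. An RNAPOL2 peak with a score of 1038 (rank 4609) and an H3K27ac peak with a score of 777 (rank 6514) lay 49.2 kb upstream and covered a TSS of Ermp1.

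The receptors differed from each other. At Mc1r, the receptor for melanocyte-stimulating hormone (ENSMUSG00000074037.3, chromosome 8, 123407107 to 123410744, plus strand), an RNAPOL2 peak of 4180 bp (123401301 to 123405480, score 190, rank 11028) ended 1.63 kb upstream of the single TSS. It covered the annotated end of the upstream gene Tcf25. The read-through gene model Gm20388 also spans this region. An H3K27ac peak (123409351 to 123410170, score 134, rank 16906) lay 2.24 kb downstream of the TSS, in the untranslated part of the Mc1r exon and 1254 bp from a TSS of Tubb3, the tubulin gene that follows. Neither peak reached within 1 kb of the Mc1r TSS. The nearest V5 peak (123373471 to 123374660, score 537, rank 2423) was 32.4 kb upstream and covered a TSS of Tcf25. That peak held 2 copies of TGACGTCA, at 123374108 to 123374115 and 123374403 to 123374410, which were the only ones in the 8 V5 peaks around the 10 genes. RNAPOL2 and H3K27ac peaks overlapped it.

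Ednrb, the endothelin receptor of the neural crest (ENSMUSG00000022122.15, chromosome 14, 103814625 to 103844402, minus strand), held the V5 peak with the highest score around the 10 genes. The peak (103815261 to 103816140) had a score of 665, rank 1950 of 10665, at the 81.6th percentile. It lay in the untranslated last exon, 27.6 kb downstream of the nearest Ednrb TSS, and no other coding gene had a closer TSS. An H3K27ac peak (103815041 to 103817330, score 237, rank 12917) overlapped it. At the Ednrb promoter, the H3K27ac peak (103843221 to 103844410) had a score of 65 and rank 22763 of 27552, among the lowest-scored peaks of the list, at the 15.8th percentile. RNAPOL2 was not called at the gene, and its nearest peak was 494 kb away. The stretch at the middle of the V5 peak is shown because it holds 2 copies of TGACG, in capitals, on the plus strand.
Ednrb last-exon V5 peak, chr14:103815707-103815736: accgacaTGACGtggcagTGACGaacacag

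These copies lay 16 and 27 bp from the middle of the peak. The peak held no TGACGTCA, no variant and no AP1 motif. It held TCATGTG, found in 11.9% of all V5 peaks, and the E-box CACGTG, found in 13.9%, both more than 300 bp from its middle. TGACG within 30 bp of the middle, a distance chosen after these values had been seen, was found in 3 of the 6 V5 peaks nearest to these genes (Mitf, Dct and Ednrb) and in 18.8% of all V5 peaks. Because of that choice, no excess can be read from these shares.

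Together, 8 V5 peaks lay within 50 kb of a TSS of the 10 genes or in their bodies, with scores from 122 to 665 and a median of 213. The nearest coding TSS was that of the gene itself for 6 of the 8, in Mitf, Dct and Ednrb, and for the other 2 it was Suox or Tcf25. Of the 8, 4 overlapped a peak of another list, and these included both peaks at Suox and Tcf25. Of the 6 peaks nearest to the genes themselves, 4 had scores below the list median of 230. Among these 6, 2 overlapped H3K27ac (in Mitf and Ednrb) and 0 overlapped RNAPOL2, where 73.4% and 42.0% of all V5 peaks did. None of the 6 covered a TSS, and the shares over all V5 peaks include peaks at promoters. The comparison is therefore not like with like. The 6 lie in 3 genes and are not independent of each other, and no test was made.

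Distances to the nearest peak summarise the 10 genes. The median distance to a V5 peak was 70.3 kb (quartiles 28.1 and 292 kb), and over all coding genes it was 75.7 kb (15.9 and 252 kb). For RNAPOL2 the median was 43.0 kb, compared with 0 kb over all coding genes, and for H3K27ac 29.6 kb, compared with 0 kb. Peaks covered a TSS of 2 of the 10 genes for RNAPOL2 (Mitf and Pmel) and of 3 for H3K27ac (Mitf, Pmel and Ednrb), and the other genes lay farther than the median coding gene. The differences were not tested, since the genes were a chosen list.

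**Figure D4:**
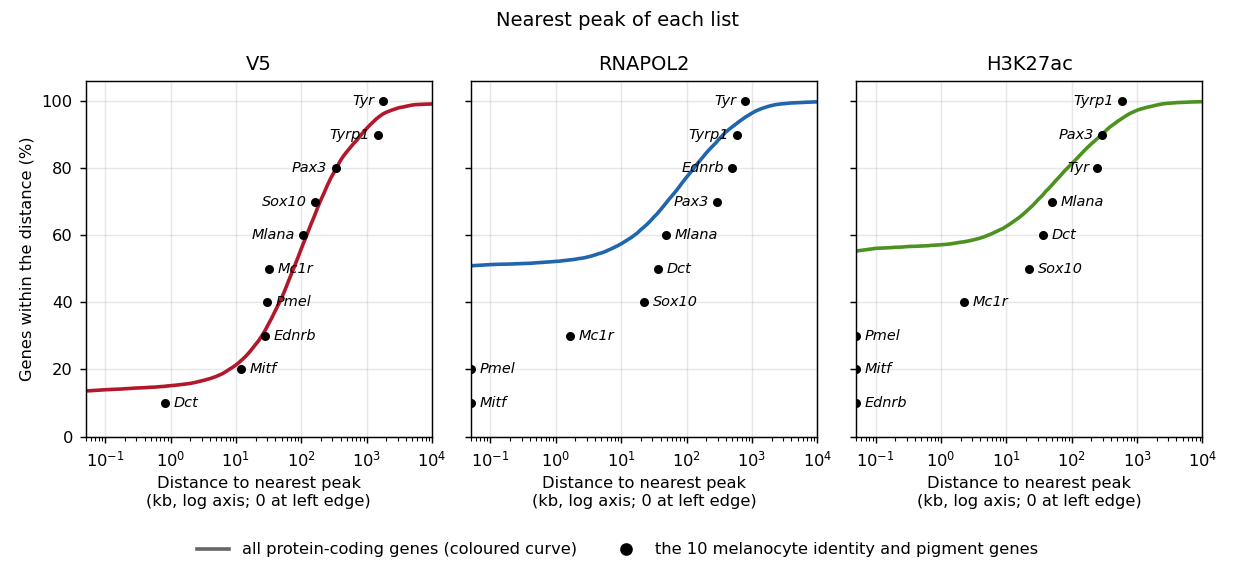
Share of genes (y axis, %) whose nearest peak lies within a given distance of a TSS (x axis, kb, log scale), for all 21938 coding genes (curve) and for the 10 genes (points, each placed at its own rank). In the V5 panel the points lie near the curve, with Dct nearest and Tyr farthest, and in the RNAPOL2 and H3K27ac panels most points lie below the curve.

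Among the genes with a promoter peak, the closest patterns over 6 values (percentiles of the highest promoter and body score in each of the 3 lists) were those of Etv1 and Clmn for Mitf, 2.26 and 2.31 percentile points away. For Dct they were Dnah6 and 9430069I07Rik, for Mc1r Unc45b and Ppfia3, and for Ednrb Myt1l and Gm10283. These distances describe the 3 lists only.

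Other genes of the melanocyte pathway were counted in 4 lists. Of 18 genes for ligands, receptors and signalling, 6 (33.3%) had a V5 promoter peak, compared with 16.6% of coding genes, 13 (72.2%) an RNAPOL2 peak, compared with 53.5%, and 13 (72.2%) an H3K27ac peak, compared with 58.6%. The 6 genes with V5 also had RNAPOL2 and H3K27ac promoter peaks. Of the 11443 coding genes with both of these, 3484 had V5 as well. The 4 highest scores of V5 promoter peaks were at Creb1, the CRE-binding factor (score 3795, rank 141), Gnas, the G protein subunit that couples receptors to adenylyl cyclase (1292, rank 853), and Prkacb and Prkaca, the catalytic subunits of protein kinase A (739, rank 1738, and 289, rank 4261). The other 2 with a V5 promoter peak, named after the values had been seen, were Adcy2, an adenylyl cyclase (277), and Ctnnb1, which encodes beta-catenin (122). Adcy2 also had V5 peaks in its body, 9 in all, with a highest score of 2999. The 5 genes without an RNAPOL2 promoter peak, named after the values had been seen, were Edn3, Kit, Lef1, Mc5r and Pomc, which include the ligand of EDNRB and the receptor tyrosine kinase of melanocytes. Of 19 other transcription factors of melanocytes, 3 (15.8%, near the 16.6% of all coding genes) had V5 promoter peaks, Hes1 (196), Sox9 (94) and Tbx3 (36), while 12 (63.2%) had RNAPOL2 and 14 (73.7%) H3K27ac promoter peaks, compared with 53.5% and 58.6%.

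The melanosome genes were counted in 2 lists, and the difference between them was not tested. Among 18 genes for pigment and ion transport in melanosomes, 0 had a V5 promoter peak, compared with 16.6% of coding genes, 5 (27.8%) an RNAPOL2 peak, compared with 53.5%, and 7 (38.9%) an H3K27ac peak, compared with 58.6%. V5 peaks lay in the bodies of 3 of these 18 genes, Oca2, Trpm1 and Slc7a11 (named after the values had been seen), where 20.0% of all coding genes had one. None of the 3 had a promoter peak in any list. Among 20 genes for the trafficking complexes that build melanosomes and related organelles, which many cell types use, 20 had RNAPOL2 promoter peaks (53.5% of all coding genes) and 20 had H3K27ac promoter peaks (58.6%). V5 had a promoter peak at 7 of these (35.0%, compared with 16.6%), with the highest scores at Hps4 (4260, rank 101), Bloc1s4 (1772, rank 558), Hps5 (992, rank 1243) and Bloc1s5 (799, rank 1594). The 16.6% includes coding genes without RNAPOL2 or H3K27ac promoter peaks. Of the 11443 coding genes with both, as at these 20, 3484 also had a V5 promoter peak.

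Markers of other cell types that a hindlimb tumour could hold were counted as well. RNAPOL2 promoter peaks were listed at 5 of 9 fibroblast, 3 of 7 endothelial, 3 of 10 Schwann cell, 2 of 8 leukocyte, 1 of 12 skeletal muscle and 1 of 6 keratinocyte markers, where 53.5% of all coding genes had one. H3K27ac promoter peaks were listed at 8 of 9, 5 of 7, 5 of 10, 6 of 8, 1 of 12 and 3 of 6 of these, where 58.6% of all coding genes had one. Promoter peaks of V5 lay at 2 fibroblast markers (Prrx1 and Twist1) and 1 Schwann cell marker (Pmp22), and at 0 of the other 4 lists, where 16.6% of all coding genes had one. The part of other cell types in the peaks at the 10 genes was not tested.

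**Figure D5:**
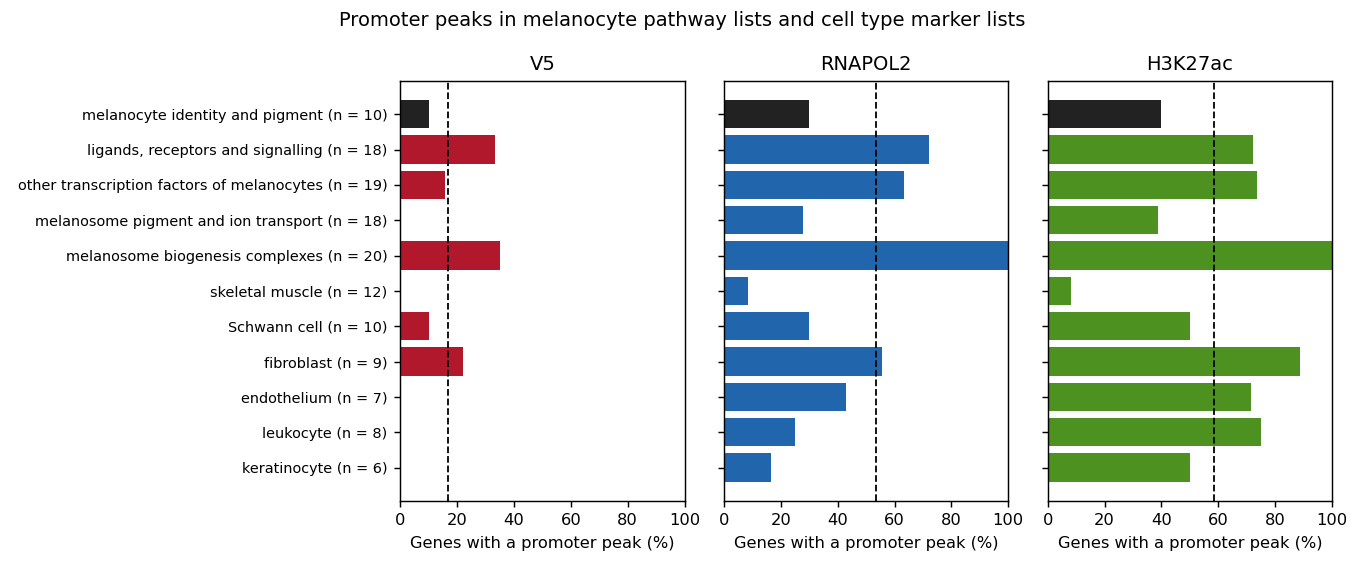
Share of the genes of each list with a promoter peak (x axis, %) in the V5, RNAPOL2 and H3K27ac lists. The dashed line is the share over all coding genes (16.6%, 53.5% and 58.6%), and black bars are the 10 melanocyte identity and pigment genes. The bar of the trafficking complexes that build melanosomes reaches the end of the axis for RNAPOL2 and H3K27ac, and the black bars stay left of the dashed line.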

How the data were processed

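The tumour chromatin was immunoprecipitated and sequenced by the authors. The labels give 4 samples per antibody and 4 inputs, the methods more for V5 and RNAPOL2, and the samples behind each list are therefore not known, nor whether they were pooled. Reads were aligned to mm10 with BWA 0.7.10-r789. Peaks were called by MACS2 2.2.6 against input (broad option for H3K27ac), and duplicate reads and denylisted regions were removed. Each deposited list gives positions and a score, on a scale the authors do not state.

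Overlaps of at least 1 bp were computed with GENCODE vM21 (GRCm38, the assembly of mm10) and all its TSSs. H3K27ac peaks within 12 kb were stitched, where the study used 12.5 kb. Sequence came from GRCm38.p6 and from RefSeq promoters (250 bases before to 50 after a start). The genes and lists were chosen with earlier results of these data known. Named were all 10 genes, the nearest coding gene of each V5 peak, the 4 highest V5 scores per pathway list and the 2 nearest patterns. Also named were genes at or near the other peaks around the 10 genes, and the cell type markers with a V5 promoter peak. A few more are marked as named after the values had been seen. The symbol Asip was not matched. Alternatives changed windows, TSSs, the overlap rule, the score threshold and stitching. Functions were tested on simulated data. Python 3.11.15, numpy 2.4.6, pandas 2.3.3 and matplotlib 3.10.9 were used.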

Additional observations from a re-analysis of the deposited data

How the results depend on the processing

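All values are counts of the 10 genes, with the share over all coding genes at the same setting in parentheses. Of 39 alternatives to 10 counts, 29 gave a count within 1.5 times the one reported, and the other 10 were lower, as a stricter rule or fewer peaks must make them. V5 promoter peaks fell from 1 gene (16.6%) to 0 (15.5%) with TSSs of protein-coding transcripts alone, since the Dct peak lies at a retained-intron TSS, and to 0 (7.3%) in the upper 50% of the list by score. V5 peaks within 50 kb fell from 5 genes (41.3%) to 2, Dct and Mitf (30.1%), with a window of 25 kb, and to 3 (24.4%) in the upper 50%. RNAPOL2 promoter peaks fell from 3 genes (53.5%) to 1, Pmel (46.9%), in the upper 50%. RNAPOL2 peaks in bodies fell from 2 genes (53.7%) to 1, Pmel, by the middle base (42.0%) and in the upper 50% (46.7%). H3K27ac promoter peaks fell from 4 genes (58.6%) to 2, Mitf and Pmel (50.1%), in the upper 50%. Acetylation clusters touched 0 genes (6.35%) in place of 1 (15.9%) with at least 5 peaks, and 0 (5.89%) in the upper 50%. No paired analysis was possible because each antibody has 1 list and no values per sample, and for the same reason no replicate could be left out. With 1 list per antibody and no depth, neither a missing peak nor a difference between lists can be given an error.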
